A study of Mus musculus with 12 samples.

Results

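The genes described here are 38 members of the complement and blood clotting cascades, 19 of complement and 19 of coagulation and fibrinolysis. They were chosen by symbol from the 55291 genes of a table of mouse liver read counts. No rule on their values was used, but earlier results of these data were known. All 38 were in the table, and all 38 were among the 18305 genes that passed the low-count filter. Livers of male mice of the inbred C57BL/6 strain gave 12 libraries in 4 groups of 3, and the mice were 6 weeks old when the study began. The series is titled as exercise interventions in mice with fatty liver (NAFLD). The HFD+RE and HFD+AE mice ate a high-fat diet (D12492) for 8 weeks and then had at least 12 weeks of training, in regimes that the labels give only as RE and AE. The HFD mice had the same diet and their label names no training, and the NC mice ate a normal diet. Per the series' design text, each of the 3 high-fat groups held 8 mice and NC held 13. Nothing in the sources used here ties the libraries of a group to separate animals, so the spread behind each p-value may be technical rather than between animals.

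Complement and coagulation are cascades of plasma proteases in which each enzyme cleaves and activates the next. Hepatocytes make most of these proteins and secrete them into blood, while C1q comes mainly from macrophages. Complement is started by antibodies (classical pathway), by sugars on microbes (lectin pathway) or by spontaneous turnover of C3 (alternative pathway), and ends in a pore made of C5b to C9. Clotting ends in thrombin, which turns fibrinogen into fibrin, and plasmin dissolves the fibrin again.

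Depth was 44373214 to 77665729 counts per library. Levels are given as CPM, counts scaled to a common library size by TMM, which compare a gene between libraries. Levels of different genes are compared as TPM, which also divides by gene length. The 38 members together held 3.77%, 2.8% and 2.28% of all counts in HFD+RE 3, 4 and 5, and 3.28%, 3.43% and 3.4% in HFD+AE 1, 2 and 3. They held 2.15%, 3.66% and 1.93% in HFD 1, 2 and 3, against 5.39%, 4.26% and 3.3% in NC 2, 4 and 5. All 11 hepatocyte markers of the tissue check were detected in every group, and their summed level was 118272 to 145588 CPM in HFD+RE, 133758 to 161278 CPM in HFD+AE, 85993 to 115821 CPM in HFD and 137534 to 152514 CPM in NC.

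Single libraries stood apart within their groups for these genes. HFD 2 was the highest of the 3 HFD libraries for 35 of the 38 members, and HFD 3 was the lowest for 28. NC 2 was the highest of its group for 29 members and NC 5 the lowest for 33. HFD+RE 3 was the highest of its group for 24 members and HFD+RE 5 the lowest for 29. HFD+AE 3 was the highest of its group for 24. The median coefficient of variation over the members was 24.5% in HFD+RE, 17.4% in HFD+AE, 32% in HFD and 16.4% in NC. Mitochondrial rRNA, 1 measure of RNA composition, took 0.685% to 1.71% of counts in HFD+RE, 0.771% to 0.867% in HFD+AE, 1.76% to 3.26% in HFD and 0.708% to 0.924% in NC, and its part in the results was not tested. Spearman's correlation, across genes, of a gene's deviation from its mean with gene length was 0.22, -0.29 and -0.31 in HFD+RE 3, 4 and 5, 0.29, 0.29 and -0.03 in HFD+AE 1, 2 and 3, -0.26, -0.15 and -0.29 in HFD 1, 2 and 3, against 0.2, 0.21 and 0.08 in NC 2, 4 and 5. With GC content it was 0.49 in HFD+AE 3, and -0.29 to 0.33 in the other 11 libraries. With both trends removed, 8 members were called in HFD vs NC (21.1%, against 18.3% of all genes). With no batch in the labels, batch and group cannot be told apart. C2, Cfb, Hc, Masp2, Fgg, F5, Klkb1, Plg and Serpinc1 overlap another annotated gene, and the strand setting of the counting is not given in the sources used here, so part of their counts may belong to that gene.

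Per length, fibrinogen and C3 led the members. In HFD the order began with Fgg at 1748 ± 835 TPM (SD, n = 3), Fga at 1691 ± 1081 TPM, C3 at 1625 ± 1175 TPM, Fgb at 1573 ± 750 TPM and Kng1 at 1061 ± 208 TPM. In NC it began with Fga at 4690 ± 1955 TPM, Fgg at 4011 ± 1617 TPM, C3 at 3841 ± 517 TPM and Fgb at 3765 ± 1716 TPM, neighbours that did not differ beyond their spread. Plg followed at 1493 ± 392 TPM and Kng1 at 1491 ± 186 TPM. The order ended in both groups with C2, at 12.8 ± 0.677 TPM in HFD and 12.2 ± 0.239 TPM in NC, and Cfb, at 1.72 ± 1.69 TPM in HFD and 6.44 ± 1.47 TPM in NC. Several members changed place in between. C8b stood at rank 30 in HFD and rank 20 in NC, and C8a at rank 17 in HFD and rank 8 in NC, whereas C8g stood at rank 9 in HFD and rank 19 in NC, and Mbl2 at rank 6 in HFD and rank 15 in NC.

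**Figure D1:**
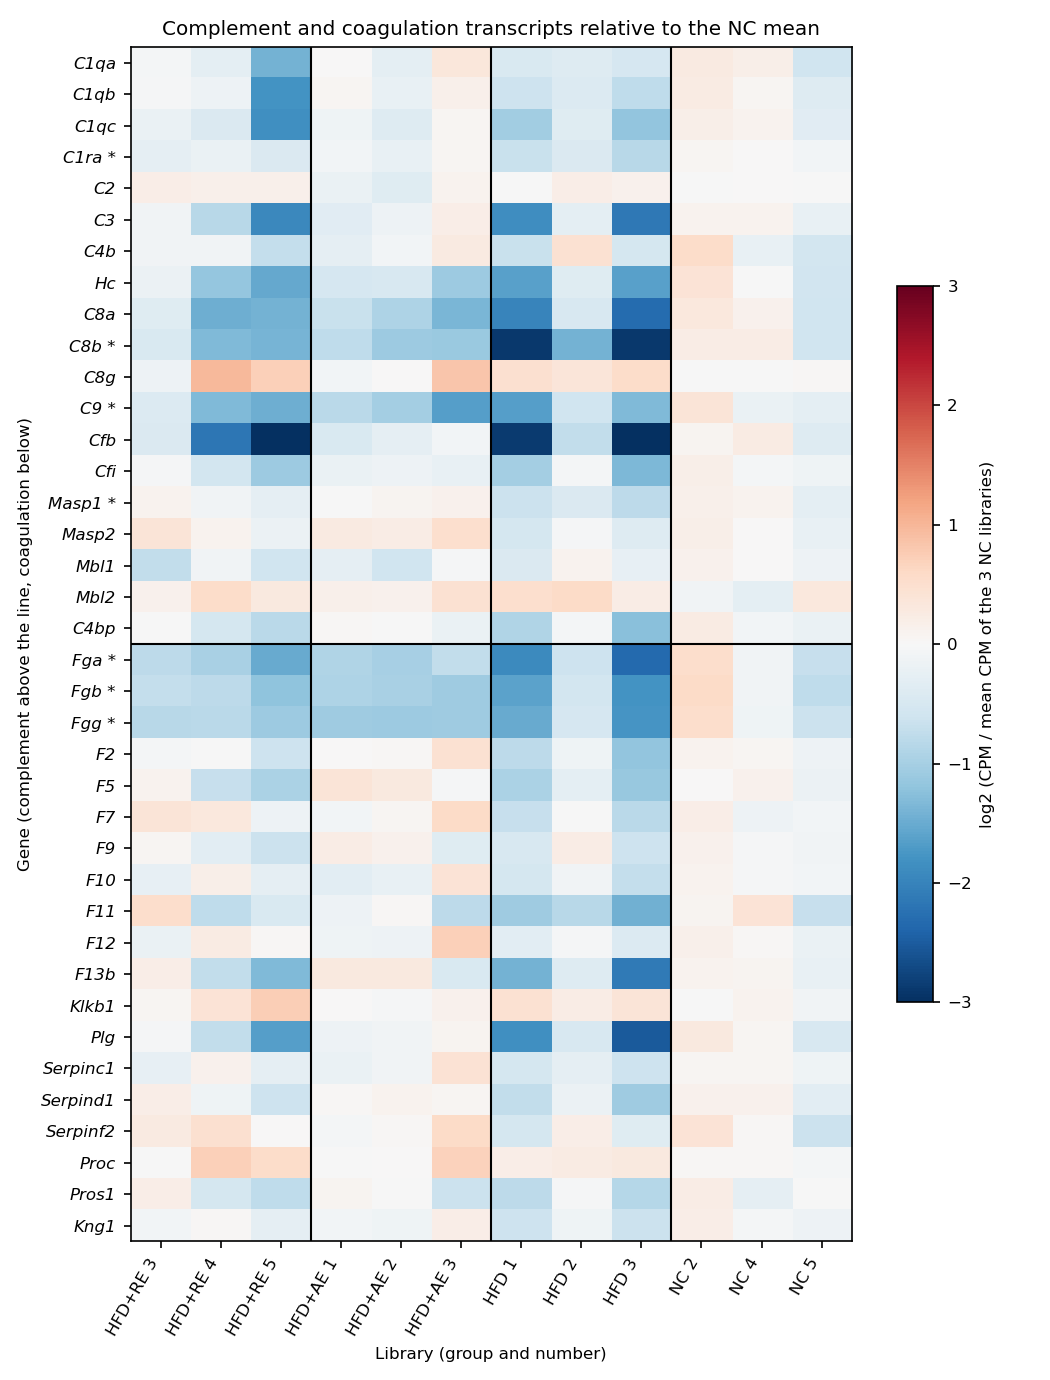
Log2 ratio of each member's CPM to the mean CPM of the 3 NC libraries, by gene (vertical, complement above the line and coagulation below it) and library (horizontal), with colours that end at -3 and 3 and stars on genes called in HFD vs NC. HFD 1, HFD 3 and HFD+RE 5 are the bluest columns, with medians over the members of -0.72, -0.84 and -0.68, and HFD 2 is paler, at -0.22.

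The comparison of HFD with NC asked how the high-fat diet altered the liver transcripts. Of the 38 members, 7 fell, 0 rose and 31 did not pass an adjusted p of 0.05 in edgeR's quasi-likelihood test. Those that fell were C8b, C9, C1ra and Masp1 of complement (4 of 19) and Fga, Fgb and Fgg of coagulation (3 of 19). Among all 18305 genes 15.6% were called, 7.19% as fallen, so 7 of 38 (18.4%) lies near the share called in the whole table, while the direction was downward for each of the 7. The estimated log2 change was below 0 for 33 members, against 49.3% of all genes, and the median was -0.61, against 0.01 over all genes. At an unadjusted p under 0.05 there were 20 members (52.6%, against 34.7% of all genes), and DESeq2 called 13 (19.7% of its genes). HFD lay below NC without overlap for 14 members and above it for 3, against 22.1% and 23.9% of all genes. Cell type markers moved both ways in the same comparison. Of stellate cell markers 6 of 11 rose (median 1.06), as did 4 of 8 of B and plasma cells (median 1.61), 3 of 10 of T and NK cells (median 1.67) and 2 of 5 of platelets (median 1.65). Of hepatocyte markers 1 of 11 fell (8 below 0, median -0.41), as did 4 of 12 endothelial markers (12 below 0, median -0.98) and 2 of 13 Kupffer cell and macrophage markers (12 below 0, median -1.2). Of recruited macrophage markers 2 of 8 rose and 1 fell (6 above 0, median 0.62). The part of these lists in the members' shift was not tested.

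The number of calls depended on single libraries, but C8b was called in each of 21 alternative settings. Without NC 2, NC 4, HFD 1 or HFD 3, C8b was the 1 member called, while those settings called 4.96%, 3.06%, 2.6% and 2.21% of all genes. Without HFD 2, 19 members fell (18.8% of all genes called), and without HFD+RE 3, 14 fell (23.5%).

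**Figure D2:**
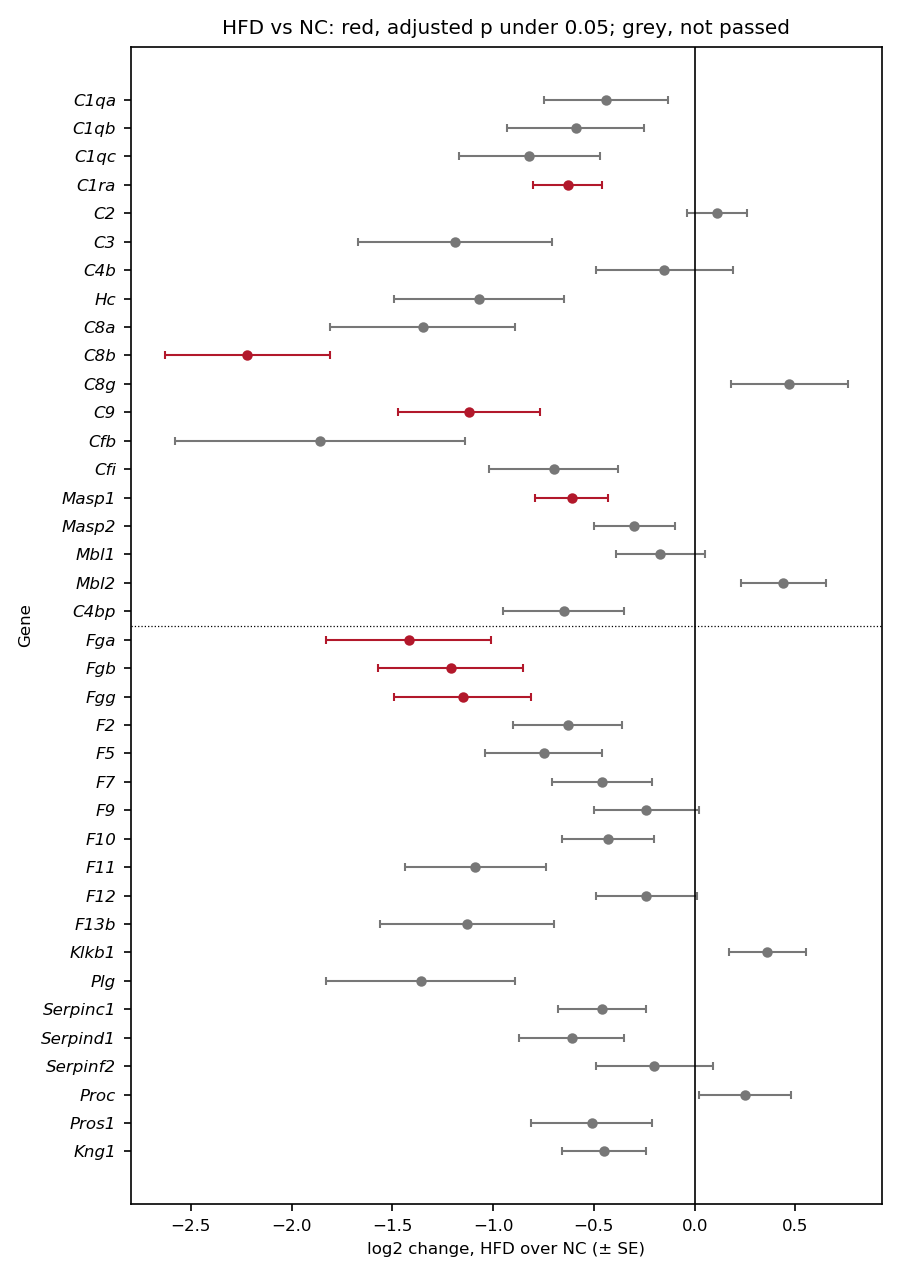
Fitted log2 change of HFD over NC (horizontal, point) with its SE (bar) for the 38 members (vertical), red where the adjusted p was under 0.05. The 7 red points lie between -2.22 and -0.61, and 33 of the 38 points lie below 0.

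The terminal pathway, which builds the membrane attack pore, held the member with the largest called change, C8b. C8 is made of 3 chains, each from its own gene, and joins C5b, C6 and C7 before C9 forms the pore. C8b had 288, 156 and 150.4 CPM in HFD+RE 3, 4 and 5, 233, 185 and 182 CPM in HFD+AE 1, 2 and 3, 52.7, 147 and 52.9 CPM in HFD 1, 2 and 3, and 456, 462 and 261 CPM in NC 2, 4 and 5. Every HFD library lay below every NC library, all 6 trained libraries lay above all 3 HFD libraries, and only HFD+RE 3 of the trained ones reached the NC range. C8b fell in HFD relative to NC (log2 change -2.22, SE 0.41, adjusted p = 0.0081). Its log2 change was -2.90 without HFD 2 and -1.97 at the other end of the 21 alternatives. C8a had 919, 426 and 438 CPM in HFD+RE 3, 4 and 5, 737, 621 and 453 CPM in HFD+AE 1, 2 and 3, 299, 849.5 and 239 CPM in HFD 1, 2 and 3, and 1456, 1294 and 782 CPM in NC 2, 4 and 5. HFD 2 overlapped NC 5, and C8a did not pass (log2 change -1.35, SE 0.46, adjusted p = 0.06). It was called in 4 of 21 alternatives, among them the setting without HFD 2. C8g had 239.7, 521 and 432 CPM in HFD+RE 3, 4 and 5, 251, 268 and 472 CPM in HFD+AE 1, 2 and 3, 373, 342 and 388 CPM in HFD 1, 2 and 3, and 261, 265 and 269.7 CPM in NC 2, 4 and 5. All 3 HFD libraries lay above all 3 NC libraries, and C8g, the chain that belongs to the lipocalin family, stood at 0.47 (SE 0.29, adjusted p = 0.25). Over the 21 alternatives its estimate ran from 0.13 to 0.83, with a call in 2.

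The 3 chains' transcripts had different values in HFD, and the 250 bases before the start of each gene are shown for that reason (RefSeq, build GRCm38.p6, 5′ to 3′ on the gene's strand). Capitals mark matches to 4 motifs named beside the fibrinogen sequences further on.
C8a, chr4:104876399-104876648 (- strand): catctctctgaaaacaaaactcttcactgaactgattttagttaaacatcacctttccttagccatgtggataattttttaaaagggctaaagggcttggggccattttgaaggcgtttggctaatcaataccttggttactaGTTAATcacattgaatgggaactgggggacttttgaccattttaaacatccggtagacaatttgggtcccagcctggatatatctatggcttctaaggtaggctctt
C8b, chr4:104766067-104766316 (+ strand): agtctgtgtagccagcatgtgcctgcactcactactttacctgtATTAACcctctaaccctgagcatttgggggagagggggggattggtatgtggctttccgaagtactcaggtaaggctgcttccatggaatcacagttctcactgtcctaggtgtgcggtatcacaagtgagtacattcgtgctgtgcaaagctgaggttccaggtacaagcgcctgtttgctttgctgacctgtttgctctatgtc
C8g, chr2:25501720-25501969 (- strand): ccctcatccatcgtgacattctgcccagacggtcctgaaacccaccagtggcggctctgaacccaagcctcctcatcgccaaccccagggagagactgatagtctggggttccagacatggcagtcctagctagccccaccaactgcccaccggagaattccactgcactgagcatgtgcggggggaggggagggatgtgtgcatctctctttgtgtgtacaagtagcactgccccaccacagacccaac
Positions count from a gene's start to the first base of a match. C8a held GTTAAT 107 bases before its start, C8b held the same letters on the opposite strand, 206 bases before its start, and C8g held none of the 4 motifs. C8a and C8b are neighbours on chromosome 4 of mm10 (C8a from 104815679 to 104876398 on the minus strand, C8b from 104766317 to 104804548 on the plus strand), and C8g lies on chromosome 2 (25498651 to 25501719).

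Per length, the C8g to C8b ratio was 12.1, 3.96 and 12.5 in HFD 1, 2 and 3, against 0.977, 0.978 and 1.76 in NC 2, 4 and 5. It was 1.42, 5.69 and 4.89 in HFD+RE 3, 4 and 5 and 1.83, 2.47 and 4.42 in HFD+AE 1, 2 and 3, so both trained groups overlapped HFD through HFD 2 (exact permutation p = 0.3 for HFD+RE and 0.2 for HFD+AE, adjusted 0.514 and 0.417). C8g (1493 bases) is shorter than C8b (2545 bases). The correlation with gene length given above was negative in every HFD library and positive in every NC library, and its part in this ratio was not tested. The C8a to C8b ratio was 3.97, 4.04 and 3.17 in the HFD libraries, against 2.24, 1.96 and 2.1 in the NC libraries. The C8a to C8b ratio was 2.23, 1.91 and 2.04 in HFD+RE 3, 4 and 5 and 2.21, 2.35 and 1.74 in HFD+AE 1, 2 and 3. Thus C8b was lower relative to C8a in each HFD library than in any of the other 9, HFD 2 included. Between 3 and 3 libraries an exact two-sided permutation test cannot go below p = 0.1, which HFD reached against NC for both ratios, and against both trained groups for C8a to C8b (0.267 adjusted over the 48 ratio tests).

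**Figure D3:**
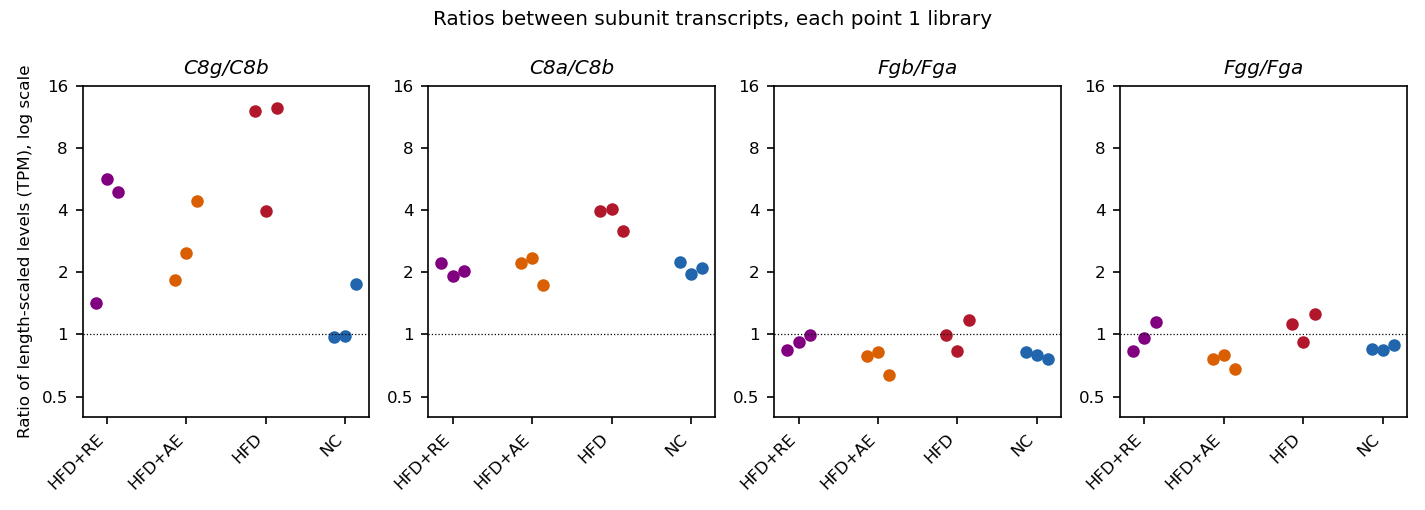
Ratio of length-scaled levels (vertical, log scale) between the C8 chains and between the fibrinogen chains, 1 point per library, by group (horizontal). The C8g to C8b ratio reaches 12.5 in HFD and at most 1.76 in NC, while both fibrinogen ratios stay between 0.639 and 1.26 in all 12 libraries.

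C9, whose copies line the pore, fell as well (chromosome 15 of mm10, 6445327 to 6498751, plus strand). C9 had 489, 260 and 238 CPM in HFD+RE 3, 4 and 5, 376, 323 and 209.9 CPM in HFD+AE 1, 2 and 3, 209.7, 436 and 259.9 CPM in HFD 1, 2 and 3, and 859.9, 572 and 533 CPM in NC 2, 4 and 5. Each HFD library was below each NC library, with HFD 2 the highest of its group. The change was -1.12 (SE 0.35, adjusted p = 0.047), called in 11 of 21 alternatives. Hc had 1274, 648 and 498 CPM in HFD+RE 3, 4 and 5, 1016, 1038 and 684 CPM in HFD+AE 1, 2 and 3, 471, 1135 and 468 CPM in HFD 1, 2 and 3, and 1933, 1445 and 967 CPM in NC 2, 4 and 5. Hc, the mouse name for C5, which starts the pore, overlapped between the groups through HFD 2 and did not pass (log2 change -1.07, SE 0.42, adjusted p = 0.092).

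In the classical and lectin pathways 1 protease of each fell, C1ra (chromosome 6 of mm10, 124512405 to 124523443, plus strand) and Masp1 (chromosome 16, 23449417 to 23520815, minus strand). C1ra had 235, 245 and 207 CPM in HFD+RE 3, 4 and 5, 264, 241 and 291 CPM in HFD+AE 1, 2 and 3, 178, 208 and 159.5 CPM in HFD 1, 2 and 3, and 293, 284 and 268 CPM in NC 2, 4 and 5. C1ra, the gene of a protease of the C1 complex, lay lower in every HFD library than in every NC library and fell (log2 change -0.63, SE 0.17, adjusted p = 0.03); it has a near copy, C1rb, with which reads may be shared. Masp1 had 227, 196 and 175 CPM in HFD+RE 3, 4 and 5, 209, 221 and 231 CPM in HFD+AE 1, 2 and 3, 134, 156 and 122 CPM in HFD 1, 2 and 3, and 233, 226 and 171 CPM in NC 2, 4 and 5. Masp1, whose protease activates Masp2 on mannose-binding lectins, fell (log2 change -0.61, SE 0.18, adjusted p = 0.041), again without overlap. Its partner Masp2 stood at -0.30 (SE 0.20, adjusted p = 0.3). Of the lectins that bind sugars, Mbl1 stood at -0.17 (SE 0.22, adjusted p = 0.6) and Mbl2 at 0.44 (SE 0.21, adjusted p = 0.15).

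The 3 chains of C1q, which binds antibody, did not pass. C1qa had 34.1, 29 and 13.3 CPM in HFD+RE 3, 4 and 5, 35.8, 29.3 and 45.6 CPM in HFD+AE 1, 2 and 3, 26.1, 27.4 and 25.4 CPM in HFD 1, 2 and 3, and 43.4, 40.1 and 23.8 CPM in NC 2, 4 and 5. The HFD libraries lay within 25.4 and 27.4 CPM, inside the NC range, and the estimate was -0.44 (SE 0.31, adjusted p = 0.32). C1qb and C1qc lay below NC without overlap, at -0.59 (SE 0.34, adjusted p = 0.24) and -0.82 (SE 0.35, adjusted p = 0.11). Kupffer cell and macrophage markers, from cells that also make C1q, summed to 65.4 to 404 CPM in HFD+RE, 252 to 434 CPM in HFD+AE, 110.4 to 265 CPM in HFD and 289.7 to 469 CPM in NC; of 13 markers, 2 fell in HFD vs NC, 11 did not pass and none was at 0. Recruited macrophage markers summed to 49.8 to 75 CPM in HFD+RE, 57.5 to 91.2 CPM in HFD+AE, 76.6 to 109.9 CPM in HFD and 81.9 to 110 CPM in NC. Of those 8 markers, 2 rose, 1 fell and 5 did not pass in HFD vs NC. The part of both marker lists in the C1q values was not tested. In bulk liver fewer cells of a type and less RNA per cell cannot be told apart.

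C3 is the protein on which the 3 pathways converge. C3 had 7832, 4764 and 2206 CPM in HFD+RE 3, 4 and 5, 6714, 7565 and 9678 CPM in HFD+AE 1, 2 and 3, 2327, 6872 and 1916 CPM in HFD 1, 2 and 3, and 9049.9, 9082 and 7209 CPM in NC 2, 4 and 5. HFD 1 and HFD 3 stood far below NC, and HFD 2 just below the lowest NC library. The C3 estimate was -1.19 (SE 0.48, adjusted p = 0.1). It was called in 2 of 21 alternatives, among them the setting without HFD 2. Cfb, the protease of the alternative pathway, was low in this liver at 1.07, 4.65 and 0.772 CPM in HFD 1, 2 and 3 and 8.2, 9.22 and 5.9 CPM in NC 2, 4 and 5, with an estimate of -1.86 (SE 0.72, adjusted p = 0.089). C4b and C2, which form the classical convertase, stood at -0.15 (SE 0.34, adjusted p = 0.78) and 0.11 (SE 0.15, adjusted p = 0.63). C4b has a near copy, C4a, so its value is uncertain. The inhibitors Cfi, which cuts C3b and C4b, and C4bp, its cofactor, stood at -0.70 (SE 0.32, adjusted p = 0.14) and -0.65 (SE 0.30, adjusted p = 0.14).

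**Figure D4:**
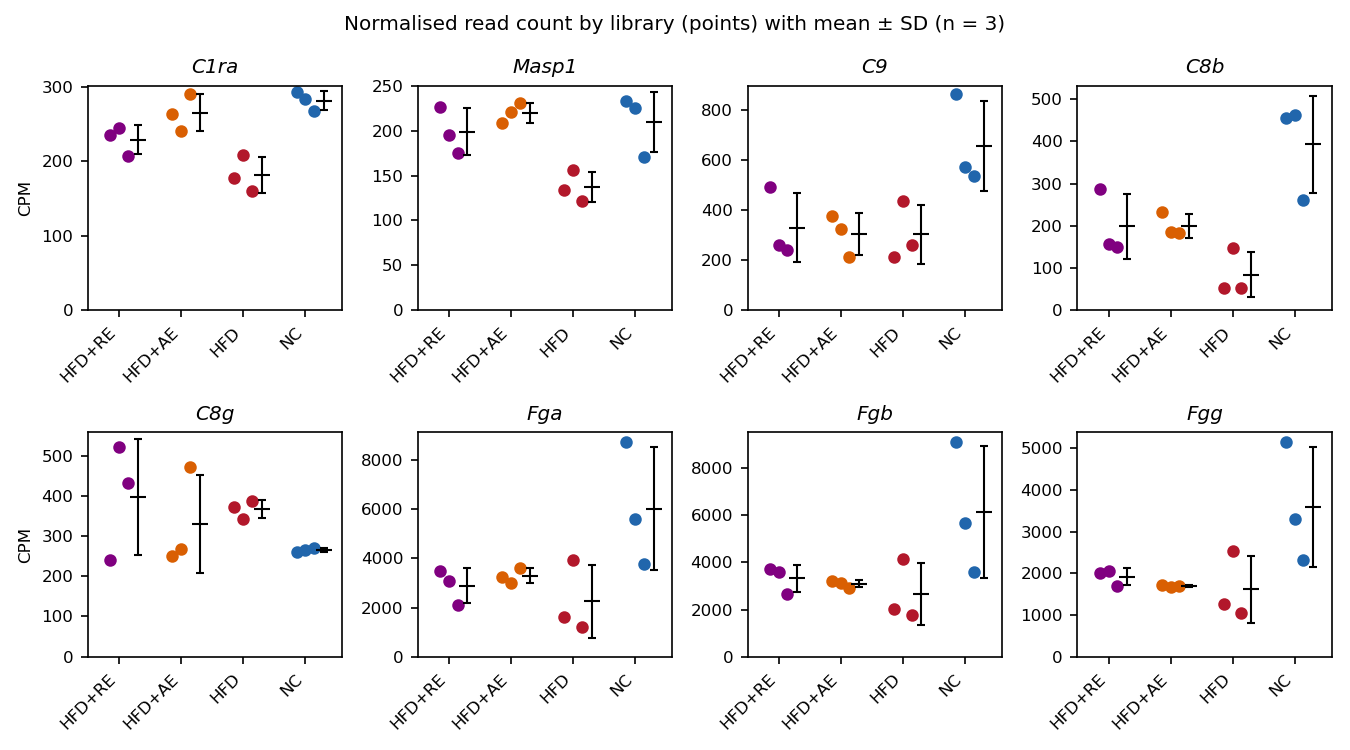
CPM (vertical, from 0) by library (points) and group (horizontal) for the 7 members that fell in HFD vs NC and for C8g, with the mean and SD of 3 libraries beside each group. C8b has means of 198, 200.2, 84.3 and 393 CPM in HFD+RE, HFD+AE, HFD and NC, and C8g is above NC in all 3 HFD libraries.

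Fibrinogen, the substrate of the clot, is made of 3 chains, and all 3 transcripts fell in HFD. Their genes lie side by side on chromosome 3 of mm10, Fgg from 83007724 to 83015049 and Fga from 83026076 to 83033627 on the plus strand, and Fgb from 83040141 to 83049863 on the minus strand. Fga had 3499, 3083 and 2109 CPM in HFD+RE 3, 4 and 5, 3252, 3014 and 3617 CPM in HFD+AE 1, 2 and 3, 1605, 3950.4 and 1204 CPM in HFD 1, 2 and 3, and 8739, 5617 and 3755 CPM in NC 2, 4 and 5. Fgb had 3720.5, 3579 and 2664 CPM in HFD+RE 3, 4 and 5, 3219, 3138 and 2927 CPM in HFD+AE 1, 2 and 3, 2009, 4161 and 1777 CPM in HFD 1, 2 and 3, and 9137, 5668 and 3599 CPM in NC 2, 4 and 5. Fgg had 2018, 2053 and 1694 CPM in HFD+RE 3, 4 and 5, 1719, 1673 and 1702 CPM in HFD+AE 1, 2 and 3, 1255, 2537 and 1058 CPM in HFD 1, 2 and 3, and 5164, 3294 and 2312 CPM in NC 2, 4 and 5. For each chain, HFD 1 and HFD 3 lay below all NC libraries, while HFD 2 lay above NC 5, so the groups overlapped. The changes were -1.42 (SE 0.41, adjusted p = 0.038) for Fga, -1.21 (SE 0.36, adjusted p = 0.04) for Fgb and -1.15 (SE 0.34, adjusted p = 0.038) for Fgg. They were called in 13, 12 and 13 of the 21 alternatives. None of the 3 was called when only HFD and NC were fitted, a setting that called 28.7% of all genes. Over the alternatives the change of Fga ran from -2.11, without HFD 2, to -1.06. NC itself spread widely, and its coefficient of variation of 45.6% for Fgb was the highest of any member in that group.

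The 3 chains were at similar levels per length, within 0.639 and 1.26 of Fga in all libraries. Per length, Fgb stood at 0.84, 0.917 and 0.998 of Fga in HFD+RE 3, 4 and 5, 0.782, 0.823 and 0.639 in HFD+AE 1, 2 and 3, 0.989, 0.832 and 1.17 in HFD 1, 2 and 3, against 0.826, 0.797 and 0.757 in NC 2, 4 and 5. Fgg stood between 0.677 and 1.26 of Fga over the 12 libraries. The HFD ratios were above the NC ratios without overlap for both (differences of 0.31 and 0.35 on the log2 scale, exact permutation p = 0.1, the smallest that 3 against 3 allows, and 0.267 adjusted). The HFD+AE ratios were below the HFD ratios without overlap for both, by differences of -0.41 for Fgb and -0.56 for Fgg with the same p-values.

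Because all 3 genes fell in HFD vs NC, the 250 bases before each start are shown (RefSeq, GRCm38.p6, 5′ to 3′ on the gene's strand). Capitals mark, on either strand, GTTAAT (part of the HNF1 site), CAAAGTNCA (HNF4), TTGCNNAA (C/EBP) and CTGGGAA (an interleukin-6 response element).
Fga, chr3:83025903-83026152 (+ strand): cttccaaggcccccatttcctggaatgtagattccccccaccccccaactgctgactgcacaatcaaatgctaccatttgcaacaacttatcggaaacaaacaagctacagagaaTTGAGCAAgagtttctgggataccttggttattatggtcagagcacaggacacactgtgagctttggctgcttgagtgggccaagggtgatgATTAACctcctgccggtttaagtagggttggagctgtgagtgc
Fgb, chr3:83049864-83050113 (- strand): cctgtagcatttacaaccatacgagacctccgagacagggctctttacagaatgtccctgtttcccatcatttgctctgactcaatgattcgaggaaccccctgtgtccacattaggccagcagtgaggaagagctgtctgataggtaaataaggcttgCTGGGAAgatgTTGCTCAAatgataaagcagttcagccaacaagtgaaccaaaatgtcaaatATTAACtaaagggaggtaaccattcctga
Fgg, chr3:83007474-83007723 (+ strand): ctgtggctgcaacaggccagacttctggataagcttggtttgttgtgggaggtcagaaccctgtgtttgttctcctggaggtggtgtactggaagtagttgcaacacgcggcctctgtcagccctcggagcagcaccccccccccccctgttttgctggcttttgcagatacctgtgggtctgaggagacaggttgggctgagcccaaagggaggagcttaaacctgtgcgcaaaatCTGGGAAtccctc
The RefSeq start of Fga lies inside the gene model of the count table, so its window overlaps that model. Fga held TTGCNNAA and GTTAAT, both on the opposite strand, 135 and 43 bases before its start. Fgb held CTGGGAA at 91, TTGCNNAA at 80 and, on the opposite strand, GTTAAT at 29 bases before its start, and Fgg held CTGGGAA at 13 bases before it. RefSeq windows of 300 bases, 250 before and 50 after the start, were found for 29 of the 38 members, and no matches of different motifs overlapped in them. GTTAAT was in 9 of the 29 (31%), against 7.1% of 32851 windows of that length, and TTGCNNAA was in 9 (31%), against 10.8%. CTGGGAA was in 5 (17.2%), against 11.1%, and CAAAGTNCA in 2 (6.9%), against 1.41%. Of the 6 fallen members with a window, 4 held GTTAAT, 4 TTGCNNAA, 3 CTGGGAA and 0 CAAAGTNCA. These are matches of letters and not measured binding.

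No other clotting factor passed in HFD vs NC. F2 had 1659.6, 1713 and 1119 CPM in HFD+RE 3, 4 and 5, 1741, 1776 and 2382 CPM in HFD+AE 1, 2 and 3, 1006, 1576 and 766 CPM in HFD 1, 2 and 3, and 1852, 1798 and 1548 CPM in NC 2, 4 and 5. F2, the gene of prothrombin, overlapped through HFD 2, at -0.63 (SE 0.27, adjusted p = 0.12). The other vitamin K-dependent members were F7, which meets tissue factor, at -0.46 (SE 0.25, adjusted p = 0.2), F9 at -0.24 (SE 0.26, adjusted p = 0.51) and F10, which cleaves prothrombin, at -0.43 (SE 0.23, adjusted p = 0.21). F5, the cofactor of F10, lay below NC in all 3 libraries at -0.75 (SE 0.29, adjusted p = 0.091), and F13b, the carrier chain of the factor that crosslinks fibrin, did so at -1.13 (SE 0.43, adjusted p = 0.085).

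Estimates in the contact system had both signs. F11, which activates F9, was the member nearest to the threshold: it had 38.1, 45.1 and 29.6 CPM in HFD 1, 2 and 3 and 84.9, 106 and 49.6 CPM in NC 2, 4 and 5, with an estimate of -1.09 (SE 0.35, adjusted p = 0.051), and it was called in 10 of 21 alternatives. F12, which starts the contact pathway, stood at -0.24 (SE 0.25, adjusted p = 0.5) and Kng1, the gene of kininogen, at -0.45 (SE 0.21, adjusted p = 0.15), with a near copy, Kng2. Klkb1, the gene of plasma prekallikrein, lay above NC in every HFD library, at 309, 259 and 292 CPM in HFD 1, 2 and 3 and 223, 239.8 and 208 CPM in NC 2, 4 and 5, yet did not pass (log2 change 0.36, SE 0.19, adjusted p = 0.2).

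Plg had 2319, 1413 and 757 CPM in HFD+RE 3, 4 and 5, 2143, 2206 and 2517 CPM in HFD+AE 1, 2 and 3, 666, 1688 and 414 CPM in HFD 1, 2 and 3, and 2919, 2481 and 1706 CPM in NC 2, 4 and 5. Plg, the gene of plasminogen, from which plasmin is cut, was lowest in HFD 3 and HFD 1, and HFD 2 lay just below NC 5, so the groups did not overlap. Its estimate was -1.36 (SE 0.47, adjusted p = 0.065), called in 3 of 21 alternatives, among them the setting without HFD 2. The inhibitors Serpinc1 (antithrombin), Serpind1 (heparin cofactor II) and Serpinf2 (antiplasmin) stood at -0.46 (SE 0.22, adjusted p = 0.15), -0.61 (SE 0.26, adjusted p = 0.11) and -0.20 (SE 0.29, adjusted p = 0.65). In the anticoagulant protein C pathway, Proc stood at 0.25 (SE 0.23, adjusted p = 0.47), with each HFD library above each NC library, and Pros1, the gene of its cofactor protein S, at -0.51 (SE 0.30, adjusted p = 0.24). Per length, Proc to F2 ratios were 0.995, 0.649 and 1.4 in HFD 1, 2 and 3, against 0.481, 0.493 and 0.535 in NC 2, 4 and 5 (exact permutation p = 0.1, adjusted 0.267). The 5 members with an estimate above 0, Klkb1, Proc, C8g, Mbl2 and C2, had a median length of 2478 bases. The median was 2981 bases for the 7 that fell and 3548 bases for all genes tested. It was 2734 bases for the members not called in HFD vs NC, which include those 5. With the length trend removed, 7 members fell, with F11 in place of Masp1 (18.4%, against 14.1% of all genes).

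The effect of AE training was read from HFD+AE against HFD. By edgeR 0 of 38 members were called, against 0.0492% of all genes (9 genes), and the smallest adjusted p was 0.068. At an unadjusted p under 0.05 there were 14 members (36.8%, against 26.4% of all genes), and DESeq2 called 8 (10.3% of its genes), all higher in HFD+AE: C1ra, C8b, F13b, F2, F5, Masp1, Masp2 and Plg. The estimate was above 0 for 33 members, against 50.2% of all genes, with a median of 0.50 against 0.00 over all genes. HFD+AE lay above HFD without overlap for 13 members and below for 1, Klkb1, against 15.8% and 16.3% of all genes.

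Masp1 was nearest to the threshold, at 0.68 (SE 0.18, adjusted p = 0.068), then F5 at 0.97 (SE 0.29, adjusted p = 0.078), C1ra at 0.54 (SE 0.17, adjusted p = 0.087), Masp2 at 0.64 (SE 0.20, adjusted p = 0.088), C8b at 1.25 (SE 0.40, adjusted p = 0.089) and F2 at 0.82 (SE 0.27, adjusted p = 0.096). F5 had 888, 514 and 425 CPM in HFD+RE 3, 4 and 5, 1075, 1012 and 809 CPM in HFD+AE 1, 2 and 3, 426, 673 and 377 CPM in HFD 1, 2 and 3, and 838, 907 and 732 CPM in NC 2, 4 and 5. The HFD+AE libraries were all above the HFD libraries, and HFD+AE 3 was the lowest of its group. The fibrinogen chains were closer to HFD, at 0.55 (SE 0.41, adjusted p = 0.41) for Fga, 0.22 (SE 0.36, adjusted p = 0.72) for Fgb and 0.07 (SE 0.33, adjusted p = 0.91) for Fgg, as was C9 at 0.01 (SE 0.35, adjusted p = 0.99). Without HFD 2, 14 members were called (8.93% of all genes), among them C8b, Plg, C3 and Fga. Without HFD+RE 3, which is in neither group but enters the shared estimate of spread, 4 were called (10.5%, against 10.2% of all genes).

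For RE training, HFD+RE against HFD, edgeR called 0 of 38 members, against 0.0109% of all genes (2 genes), with a smallest adjusted p of 0.35. At an unadjusted p under 0.05 there were 4 members (10.5%, against 8.77% of all genes), C8b, Masp1, F11 and F7, and DESeq2 called 0 (1.0% of its genes). Their estimates were 1.23 (SE 0.40, adjusted p = 0.35), 0.54 (SE 0.18, adjusted p = 0.39), 0.97 (SE 0.35, adjusted p = 0.43) and 0.66 (SE 0.25, adjusted p = 0.46). Over the members the median was 0.31, against 0.04 over all genes, and 33 estimates were above 0, against 54.8% of all genes. HFD+RE lay above HFD without overlap for 4 members, C8b, Masp1, F11 and Serpinc1, against 7.15% of all genes. HFD+RE 3 and HFD+RE 5 differed widely: C3 was 7832 CPM in HFD+RE 3 and 2206 CPM in HFD+RE 5, Plg 2319 and 757 CPM, and Cfb 5.71 and 0.549 CPM in the same libraries. Both training comparisons use the same HFD libraries, which also enter HFD vs NC.

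Set against each other, HFD+RE and HFD+AE showed 0 of 38 members called by edgeR, against 0.0% of all genes, with a smallest adjusted p of 0.61. There was 1 member, F5, at an unadjusted p under 0.05 (2.63%, against 8.02% of all genes), at -0.66 (SE 0.29, adjusted p = 0.61), and DESeq2 called 0 (0.149% of its genes). The median was -0.18, against 0.01 over all genes. C8b was alike in mean, at 198 ± 77.9 CPM in HFD+RE and 200.2 ± 28.7 CPM in HFD+AE (SD, n = 3 each), with an estimate of -0.01 (SE 0.39). Leaving out both HFD+AE 3 and HFD+RE 3 gave 5 members, with C2, C8g, Klkb1 and Proc higher and F5 lower in HFD+RE. That setting called 22.1% of all genes, a larger share than the 13.2% of members.

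The trained groups were also set beside NC. HFD+RE against NC gave 0 of 38 members by edgeR (3.96% of all genes), 8 at an unadjusted p under 0.05 (21.1%, against 24.5%) and 1, C9, by DESeq2 (10.6% of its genes). HFD+AE against NC gave 0 members by edgeR (1.38% of all genes), 4 at an unadjusted p under 0.05 (10.5%, against 14.0%) and 2, C9 and Fgg, by DESeq2 (4.21% of its genes). The medians were -0.30 for HFD+RE and 0.00 for HFD+AE, against 0.02 and -0.01 over all genes. HFD+RE lay below NC without overlap for 5 members (12.4% of all genes) and HFD+AE for 7 (9.74%). In HFD+AE, C9 stood at -1.11 (SE 0.35, adjusted p = 0.15), Fgg at -1.08 (SE 0.34, adjusted p = 0.15), Fgb at -0.99 (SE 0.36, adjusted p = 0.22) and C8b at -0.97 (SE 0.40, adjusted p = 0.28), each below NC without overlap. In HFD+RE, C9 stood at -0.99 (SE 0.35, adjusted p = 0.11), Fga at -1.06 (SE 0.41, adjusted p = 0.14), Fgg at -0.90 (SE 0.34, adjusted p = 0.13) and C8b at -0.99 (SE 0.40, adjusted p = 0.15). Without HFD+RE 3, 8 members were called in HFD+RE vs NC (21.1%, against 21.0% of all genes): C8a, C8b, C9, Cfb, F5 and Hc lower, and C8g and Klkb1 higher.

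Other genes of the same cascades were read from lists of the pathway. Of 28 further complement genes tested, 4 rose, 6 fell and 18 did not pass in HFD vs NC (35.7% called, against 15.6% of all genes, and median -0.54, against 0.01 over all genes). C6 had 217, 97.3 and 164 CPM in HFD+RE 3, 4 and 5, 165, 100.3 and 91.3 CPM in HFD+AE 1, 2 and 3, 50.1, 88 and 51.1 CPM in HFD 1, 2 and 3, and 447, 364 and 339 CPM in NC 2, 4 and 5. C6, which joins the pore before C8, was below NC in all 9 libraries on the high-fat diet. It fell in HFD (log2 change -2.60, SE 0.34, adjusted p = 0.0016), in HFD+AE (log2 change -1.69, SE 0.33, adjusted p = 0.027) and in HFD+RE (log2 change -1.26, SE 0.32, adjusted p = 0.047), called in 21, 15 and 10 of the 21 alternatives. C1rb, a near copy of C1ra, had 3.64, 4.65 and 4.71 CPM in HFD 1, 2 and 3, against 8.09, 7.83 and 21.6 CPM in NC 2, 4 and 5. It fell (log2 change -1.53, SE 0.40, adjusted p = 0.026), but without NC 5, the highest library, the log2 change was -0.88 and was not called (adjusted p = 0.085), and without HFD 1 or HFD 3 it was not called either. Fcna, a ficolin of the lectin pathway, fell (log2 change -1.04, SE 0.21, adjusted p = 0.011), but did not pass once NC 4 or HFD 1 was left out. Colec11 had 32.1, 30.6 and 36.5 CPM in HFD+RE 3, 4 and 5, 24.9, 21.3 and 39.1 CPM in HFD+AE 1, 2 and 3, 32, 26.4 and 29.1 CPM in HFD 1, 2 and 3, and 13.7, 12.7 and 12.2 CPM in NC 2, 4 and 5. Colec11, a collectin of the lectin pathway, was higher in all 9 high-fat libraries than in NC and rose in HFD (log2 change 1.18, SE 0.21, adjusted p = 0.0068), in HFD+AE (log2 change 1.14, SE 0.21, adjusted p = 0.023) and in HFD+RE (log2 change 1.36, SE 0.21, adjusted p = 0.0065), called in 19, 15 and 19 of the 21 alternatives. Colec11 is itself 1 of the 11 stellate cell markers, of which 6 rose in HFD vs NC. Cd59a, which blocks the pore on host cells, rose (log2 change 0.76, SE 0.15, adjusted p = 0.011), but did not pass once NC 4 or HFD 3 was left out.

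Cfd, the factor D that cleaves Cfb and is best known as a product of fat cells, rose in HFD (log2 change 4.63, SE 0.75, adjusted p = 0.0045), with 9.77, 45 and 5.56 CPM in HFD 1, 2 and 3 and 0.762, 0.805 and 0.854 CPM in NC 2, 4 and 5. Without HFD 2 the log2 change was 3.24, still called. Cfd is itself 1 of 6 adipocyte markers, and the other 5 summed to 0.378 to 1.66 CPM in HFD+RE, 0.247 to 0.748 CPM in HFD+AE, 4.46 to 7.03 CPM in HFD and 0.0744 to 0.184 CPM in NC. In HFD that sum was nearly all Cidea, at 7.03, 5.96 and 4.41 CPM in HFD 1, 2 and 3, while Lep and Plin1 were at 0 and Adipoq and Retn under 0.1 CPM. Serping1, the C1 inhibitor, stood at -0.40 (SE 0.29, adjusted p = 0.34).

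Of 28 further coagulation and fibrinolysis genes tested, 2 rose, 2 fell and 24 did not pass in HFD vs NC (14.3% called, against 15.6% of all genes, and median -0.10, against 0.01), so the share called was near that of the whole table. Serpine2 had 10.6, 8.3 and 14 CPM in HFD+RE 3, 4 and 5, 22.7, 14.6 and 10 CPM in HFD+AE 1, 2 and 3, 3.33, 8.49 and 3.29 CPM in HFD 1, 2 and 3, and 27.7, 45.2 and 36.5 CPM in NC 2, 4 and 5. Serpine2, an inhibitor of thrombin and plasminogen activators, was lower in every HFD library than in any NC library. It fell in HFD (log2 change -2.86, SE 0.41, adjusted p = 0.0026), called in each of 21 alternatives, with a log2 change of -3.46 without HFD 2. It fell in HFD+RE as well (log2 change -1.73, SE 0.39, adjusted p = 0.03), called in 14 of the 21. In the vitamin K cycle Ggcx, the carboxylase, fell (log2 change -0.93, SE 0.28, adjusted p = 0.042) and Vkorc1, the reductase that warfarin blocks, rose (log2 change 1.27, SE 0.37, adjusted p = 0.038). Gas6, a vitamin K-dependent ligand, rose (log2 change 1.26, SE 0.38, adjusted p = 0.042). Of these 3, Ggcx was called in 11, Vkorc1 in 15 and Gas6 in 10 of the 21 alternatives. Each call was lost without NC 2, NC 4, HFD 1 or HFD 3, settings that called 2.21% to 4.96% of all genes. F8, made mainly by endothelial cells, stood at -1.75 (SE 0.66, adjusted p = 0.082) and Vwf, its carrier, at 0.14 (SE 0.24, adjusted p = 0.69). The 12 endothelial markers, none at 0, summed to 189.9 to 451 CPM in HFD+RE, 424 to 619.5 CPM in HFD+AE, 199 to 315 CPM in HFD and 412 to 538 CPM in NC, and 4 of them fell in HFD vs NC; their part in these values was not tested. No gene of these further lists was called by edgeR in HFD+AE vs HFD, HFD+RE vs HFD or HFD+RE vs HFD+AE, where 9, 5 and 1 of the 28 complement genes and 9, 5 and 0 of the 28 coagulation genes had an unadjusted p under 0.05, against 26.4%, 8.77% and 8.02% of all genes. DESeq2 called 4, 2 and 0 of the complement genes and 2, 0 and 0 of the coagulation genes there, against 10.3%, 1.0% and 0.149% of its genes.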

How the data were processed

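Total RNA of mouse liver was sequenced in 12 libraries, 3 in each of 4 groups, with groups and replicate numbers taken from the sample titles. The deposited table holds whole-number counts per gene, made by the authors with featureCounts 2.0.6, per the file headers. Reads were trimmed with fastp and aligned to mm10 with HISAT2 2.2.1, and DESeq2 1.40.1 was used, per the submitters' processing notes. The sources used here do not give the annotation release, the strand setting or the treatment of reads with several matches. Of counts from 1 to 20, 70.5% were even, against 50.4% of counts above 100.

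The counts were tested as deposited with edgeR 4.0.16 (R 4.3.3): low genes were filtered with filterByExpr, libraries scaled by TMM, and a robust quasi-likelihood fit made over all 12 libraries with 1 mean per group. P-values were adjusted by Benjamini-Hochberg over the 18305 genes tested, with a threshold of 0.05. The SE is that of the fitted log2 change. Totals were 51178332 to 61089139 counts in HFD+RE, 55922691 to 65434486 in HFD+AE, 44373214 to 60308552 in HFD and 47823607 to 77665729 in NC, so the spread between libraries, not counting error, limits the precision for most members. Within groups no pair of libraries agreed within sampling noise (smallest chi-square per degree of freedom 63.6). Alternatives were DESeq2 1.42.0, other scaling, no filter, fewer libraries, a replicate block, length and GC trends (splines) and a 1.5-fold threshold. All 38 members were accounted for. Library values were given for members called and for C3, Hc, C1qa, F2 and Plg, and of the other pathway genes up to 3 called per direction and comparison were named, with C6, F8, Vwf and Serping1; some further genes of that rule are not reported here. Values in full for C8a, C8g, F5, F11, Cfb, Klkb1 and Cfd were added after they were seen. The members and lists were chosen with earlier results of these data known. The scripts were tested on simulated data.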

Additional observations from a re-analysis of the deposited data

Results flagged for a closer look

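C2, the protease that C1 and Masp2 cleave, lay on opposite sides of the HFD mean in the 2 training groups. C2 had 23.4, 22.4 and 22.4 CPM in HFD+RE 3, 4 and 5, 17.8, 15.8 and 21.8 CPM in HFD+AE 1, 2 and 3, 20.1, 23.3 and 22.3 CPM in HFD 1, 2 and 3, and 20.2, 20.5 and 20.2 CPM in NC 2, 4 and 5. Each HFD+RE library was above the HFD mean of 21.9 CPM and each HFD+AE library below it, HFD+AE 3 only just, at 21.8 CPM. The HFD libraries overlapped both training groups. The mean CPM of HFD+RE exceeded that of HFD+AE by 4.25. The means were 22.7 ± 0.575 CPM in HFD+RE and 18.5 ± 3.06 CPM in HFD+AE (SD, n = 3 each). The test of that difference is HFD+RE against HFD+AE, where edgeR gave 0.30 (SE 0.15, adjusted p = 0.61), so it did not pass. C2 overlaps Gm20547 and Zbtb12 in the annotation, whose share of its counts was not tested.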

How the results depend on the processing

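Shares in brackets are those of all genes called in the same setting. For HFD vs NC, 7 members were called. DESeq2 called 13 (19.7%), leaving out both HFD+AE 3 and HFD+RE 3 called 13 (33.1%, near the members' 34.2%), and a 1.5-fold threshold 1 (2.43%). Fitting only HFD and NC called 9 (28.7%, above the members' 23.7%): 8 fell, none of them a fibrinogen chain, and 1, C8g, rose. Leaving out 1 library gave 1 to 19: 1 (C8b) without NC 2, NC 4, HFD 1 or HFD 3 (2.21% to 4.96%), 2 without HFD+AE 2 (11.3%), 4 without HFD+AE 1 (12.7%), 14 without HFD+RE 3 (23.5%) and 19 without HFD 2 (18.8%). For HFD+AE vs HFD, with 0 called, DESeq2 called 8 (10.3%), no filter on low counts 1 (F5, 3.04%), leaving out both libraries 6 (22.5%, above the members' 15.8%), and leaving out 1 library 0 to 14 (4 without HFD+RE 3, 10.2%, and 14 without HFD 2, 8.93%). For HFD+RE vs HFD leaving out 1 library gave 0 to 1 (C8b, without HFD 2, 0.28%). For HFD+RE vs HFD+AE it gave 0 each time, and leaving out both gave 5 (22.1%). For HFD+AE vs NC it gave 0 each time, and DESeq2 called 2 (4.21%). For HFD+RE vs NC it gave 0 to 8 (8 without HFD+RE 3, 21.0%), leaving out both gave 7 (31.7%, above the members' 18.4%) and DESeq2 called 1 (10.6%). The cause of these shifts was not tested.

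With the replicate number as a block, 1 member (C8b) was called in HFD vs NC (1.78% of all genes). The labels do not say whether the numbers pair libraries. Deviations from group means correlated at -0.497 to 0.161 across 9 same-numbered pairs and at -0.383 to 0.509 across 45 others. These ranges overlap, so they cannot show whether the numbers pair libraries. Of 147 gene values for called results under alternatives, 93 kept their call, 54 lost it and 0 changed sign. Of 609 for 29 of the results not called, 26 passed and 0 changed sign in a called value. The other results not called were left out of these 609. C8b in HFD vs NC was called in 21 of 21 alternatives.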

Other observations

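Some transcription factors of hepatocytes fell in HFD. Of 18 such factors and cytokine pathway genes, 6 fell, 0 rose and 12 did not pass in HFD vs NC (edgeR, 33.3% called, against 15.6% of all genes, and median -0.33, against 0.01). The 3 with the smallest p were Hnf4a, a nuclear receptor of hepatocyte identity (log2 change -0.84, SE 0.19, adjusted p = 0.016), Foxa1, a forkhead factor (log2 change -1.22, SE 0.28, adjusted p = 0.018), and Onecut1 (log2 change -3.14, SE 0.76, adjusted p = 0.021). Onecut1 had 2.8, 7.09 and 2.37 CPM in HFD 1, 2 and 3, against 22.6, 12.9 and 72.2 CPM in NC 2, 4 and 5, and without NC 5 its log2 change was -2.12 and was not called (adjusted p = 0.063). Its change without HFD 2 was -3.80. Over the 21 alternatives Hnf4a was called in 17, Foxa1 in 16 and Onecut1 in 15, and each was lost without HFD 1 or HFD 3, and Foxa1 also without NC 4. In HFD+RE vs NC, Hnf4a fell (log2 change -0.75, SE 0.19, adjusted p = 0.044) and Dbp, a clock output factor, rose (log2 change 2.35, SE 0.49, adjusted p = 0.023), called in 7 and 13 of the 21 alternatives. In HFD vs NC the estimate was above 0 for 5 of the 18 genes. HFD lay above NC without overlap for 2, Cebpb and Il6ra, against 23.9% of all genes, and edgeR called neither. Cebpb had 105, 99.2 and 139 CPM in HFD 1, 2 and 3, against 59.9, 25.5 and 47.8 CPM in NC 2, 4 and 5. Whether these levels bear on the members was not tested.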
